A study of Mus musculus with 36 samples.

Results

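Expression of 9 ERK response genes was followed through the differentiation of Xmas mouse embryonic stem cells (mESCs), from the first day to the end of the series. The genes are Dusp6, Dusp4, Spry2, Spry4, Spred1, Etv4, Etv5, Egr1 and Fos. They were selected by symbol from the 25965 genes of the table, each stood on 1 line of it, and all 9 passed the filter on low values. Xmas mESCs are female C57/Bl6 cells with GFP at Hprt on one X chromosome and mCherry at Hprt on the other. On day 0 the cells grew in 2i medium, which contains a MEK inhibitor and a GSK3 inhibitor, with LIF. They were then weaned over 3 days into DME HiHi, a serum medium without LIF, and RNA was sequenced on each of 9 days. Every day has 4 libraries, 1 from each of 4 cultures, which the labels call X14 double, X14 single, X18 double and X18 single (replicates 1 to 4). Libraries of the same name on different days are taken here as samples of 1 culture, which the labels do not state. X14 and X18 are lines. What double and single stand for is not stated in the labels. Values of 4 libraries are given below in this order.

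Between 612740 and 2445826 reads per library fell in genes. Levels are given as RPM, the reads of a gene scaled to the total of its library, and 3 reads, taken as the floor, corresponded to 1.04 to 3.90 RPM. The difference between double and single in X-linked over autosomal expression (a difference of median log2 values) was between 0.247 and 1.050 in every pair of libraries of the same line and day but one. In the X14 pair of day 0 it was -1.135, so these 2 libraries stood against their labels, and comparisons with day 0 are also given without them. Day 0 serves all 8 of these comparisons, which therefore share its 4 libraries. Of 8 ES cell markers all had reads on day 0 and all were called lower on day 8, among them Nanog, with 1876 ± 484 RPM on day 0 and 152.5 ± 96.5 RPM on day 8 (SD, n = 4).

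ERK is the last kinase of the cascade that runs from FGF and other receptors through RAS, RAF and MEK. Active ERK switches on transcription of a characteristic set of genes, many of which damp the pathway again. In mESCs autocrine FGF4 drives ERK, which favours exit from the naive state, and MEK inhibition in 2i blocks this step. Among the genes studied here DUSP6 and DUSP4 are phosphatases that remove the activating phosphates from MAP kinases. Sprouty proteins (SPRY2, SPRY4) and SPRED1 act further up and restrain signalling at the level of receptors, RAS and RAF. ETV4 and ETV5 are ETS transcription factors of the PEA3 group induced by FGF signalling. EGR1 and FOS are immediate early transcription factors, whose transcripts rise within minutes of a stimulus and decay fast.

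The promoter sequences of Dusp6 and Fos are shown because the transcripts of these genes peaked on different days, those of Dusp6 on day 4 and those of Fos on day 8. They are the RefSeq windows on GRCm38.p6 that reach from 250 bases before to 50 bases after the annotated start, read 5′ to 3′ on the strand of the gene, at chr10:99262981-99263280 (plus strand) for Dusp6 and at chr12:85473640-85473939 (plus strand) for Fos. Capitals mark matches, on either strand, to any of 5 motifs. The motif searched for ETS factors, a core with its flank, was GGAAGT. For factors that bind the cAMP response element it was TGACGT, a part of that element. For AP-1 the letters TGANTCA were searched, and for serum response factor its CArG box. The inverted CCAAT box was searched as ATTGG.
Dusp6: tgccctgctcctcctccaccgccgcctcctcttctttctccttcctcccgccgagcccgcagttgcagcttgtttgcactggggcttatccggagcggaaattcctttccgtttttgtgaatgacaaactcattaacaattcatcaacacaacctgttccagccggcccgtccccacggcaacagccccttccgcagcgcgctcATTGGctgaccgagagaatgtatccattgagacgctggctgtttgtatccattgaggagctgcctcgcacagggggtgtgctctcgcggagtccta
Fos: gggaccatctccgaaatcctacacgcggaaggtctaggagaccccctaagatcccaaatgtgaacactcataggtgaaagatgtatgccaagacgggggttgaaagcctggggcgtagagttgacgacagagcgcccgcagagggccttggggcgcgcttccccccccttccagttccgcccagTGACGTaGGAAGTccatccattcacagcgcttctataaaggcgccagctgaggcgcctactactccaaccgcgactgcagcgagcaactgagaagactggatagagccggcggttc
Fos holds TGACGT and GGAAGT, 66 and 59 bases before the start, 1 base apart. Dusp6 holds ATTGG alone, 46 bases before the start. Of 32851 promoter windows of this length, GGAAGT was found in 23.8%, TGACGT in 7.51%, TGANTCA in 7.81%, the CArG box in 1.63% and ATTGG in 37.4%. Of the other members with an entry, Spry2 and Spred1 matched none of the motifs. Etv5 has 2 entries, of which the outer one held 3 matches to ATTGG and the inner one 2 to GGAAGT and 1 to ATTGG. A match describes the letters of the window and was not tested as a site of binding.

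The first question was when each gene left its level in 2i. The mean level was highest on a day between 3 and 6 for 8 of the 9 genes and on day 8 for Fos (the plots of RPM by library and of the change from day 0). A gene was called changed at an adjusted p under 0.05 and a log2 fold change of at least 1 either way (limma, Benjamini-Hochberg over 14612 genes). On day 1 none of the 9 genes was called and none had an unadjusted p under 0.05, where limma called 0.0684% of all genes. Voom on the recovered reads called 0 of all 14612 genes on day 1, and so none of the 9. On day 2 again 0 were called, by limma and by voom. By limma 4 had an unadjusted p under 0.05, as had 3504 of all 14612 genes. Of all genes, limma called 2.96% and voom 1.47%. On day 3 the count was 5 (8.89% of all genes), and on day 4 it was 7 (18.6%), all higher than on day 0. Day 5 had 4 calls (26.8%) and day 6 had 6 (33.4%), all higher. On day 7, 5 were higher and 1 lower (35.4%), and on day 8, 6 were higher and 2 lower (35.0%). The median log2 fold change of the 9 genes was 2.28 on day 4, where that of all genes was 0.12, and 1.86 on day 8, where that of all genes was 0.23. With Spry4, which had no read on day 0, set at its lower bound the medians were 2.28 and 1.67. The shift of all genes was 0.15 on day 2, 0.24 on day 6 and 0.26 on day 7, and the changes of single genes are to be read against it.

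**Figure D1:**
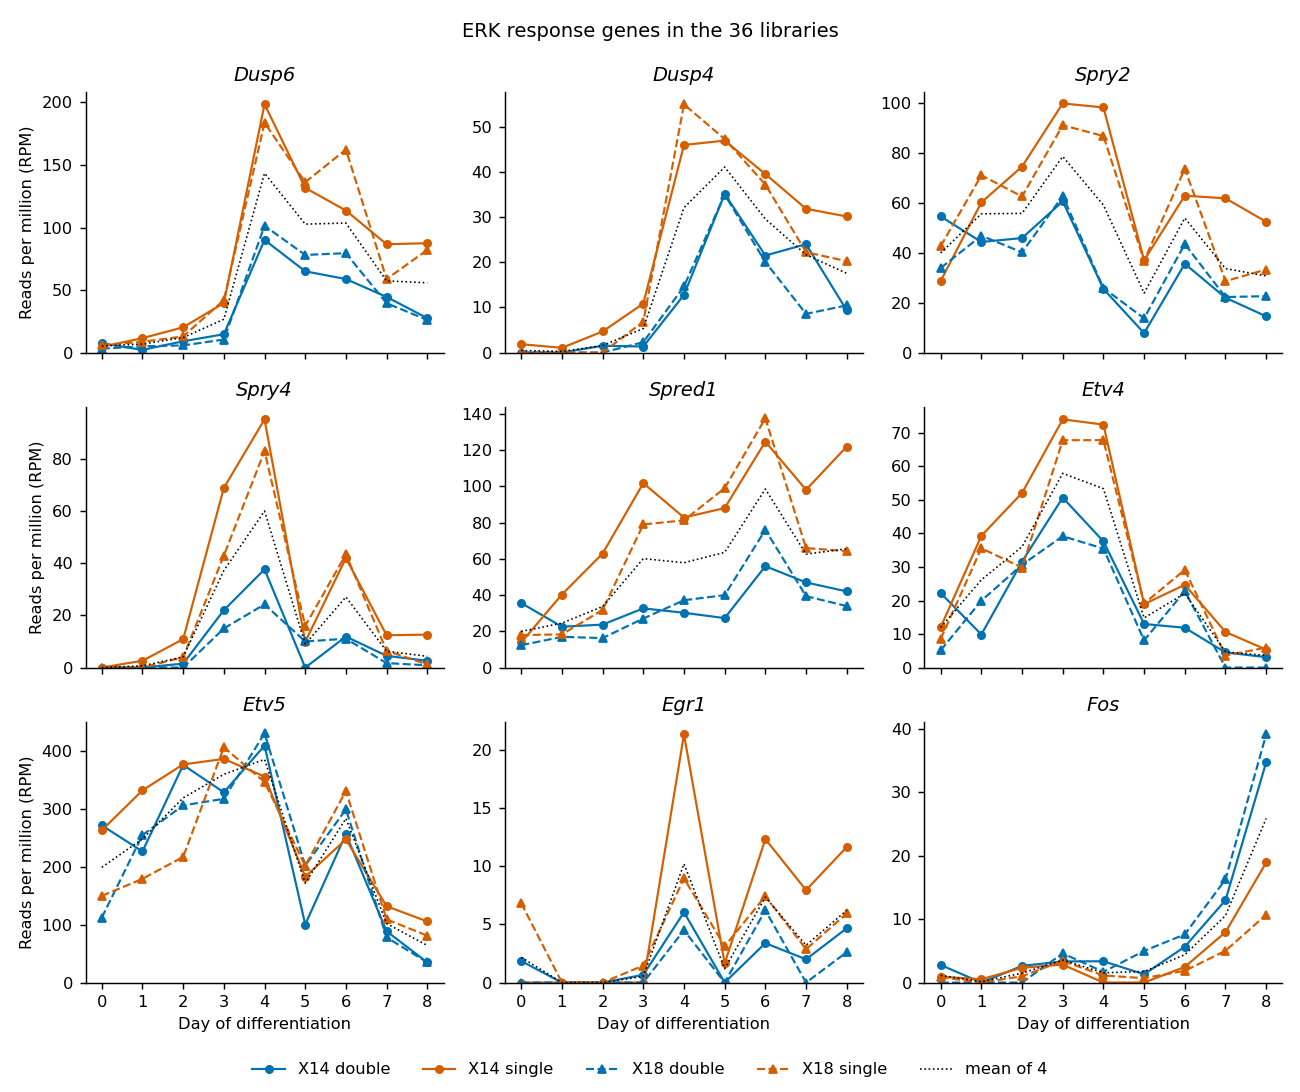
RPM of each ERK response gene (vertical axis, linear, from 0, a scale of its own in each panel) against day (horizontal axis) in all 36 libraries. Blue marks double, orange single, circles with solid lines X14, triangles with dashed lines X18, and the dotted line is the mean of 4. Dusp6 and Spry4 peaked on day 4 in all 4 cultures and Fos on day 8, and the orange lines lay above the blue ones for most genes but not for Fos.

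The early counts depended on the cultures in the fit. A replicate block compares libraries of the same replicate number. For X14 this pairing is uncertain on day 0, whose 2 libraries stood against their labels. With this block day 2 had 3 calls, namely Dusp6 (log2 1.11, adjusted p = 0.0244), Etv4 (log2 1.75, adjusted p = 0.0186) and Spry4 (log2 2.21, adjusted p = 0.0258). This fit called 4.70% of all genes on day 2. On day 3 it added Fos (log2 1.55, adjusted p = 0.03), and called 1536 of all 14612 genes. Without the X14 libraries of day 0 the counts for days 1 to 8 were 0, 2, 7, 6, 4, 7, 5 and 5, the 2 genes of day 2 being Etv4 and Etv5. The shares of all genes moved as well, to 5.61, 23.2, 24.9, 29.8, 33.7, 41.8, 43.1 and 42.3%, so that on day 2 the count of members was near the share of all genes. The day 3 count was 8 without replicate 1 (20.2% of all genes), 3 without replicate 3 (3.06%) and 1 without replicate 4 (3.02%), and the day 4 count was 4 without replicate 4 (12.4%). On day 8, 5 genes were called without replicate 1 (36.6%) and 5 without replicate 2 (31.1%). Samples of one culture on different days are repeats of it, and only 4 cultures were sampled, so the p-values measure the spread between these libraries.

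**Figure D2:**
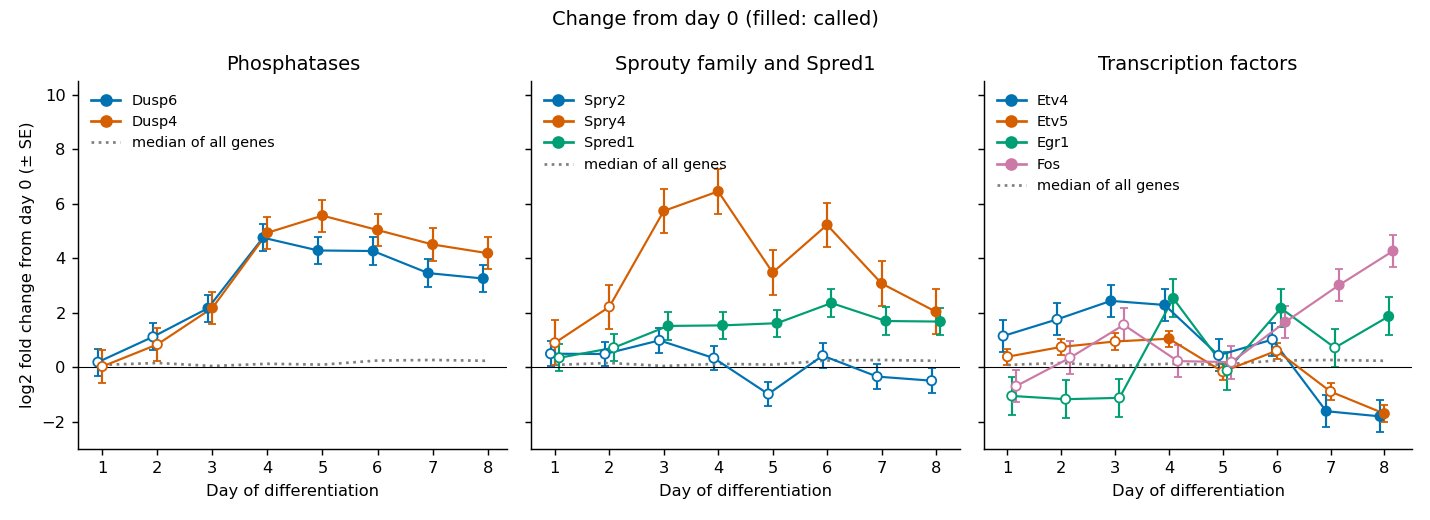
Log2 fold change from day 0 (vertical axis, limma estimate ± SE, all 36 libraries in 1 fit) on days 1 to 8 (horizontal axis). Filled points were called, open points were not, and the grey dotted line is the median of all 14612 genes. Dusp6 and Dusp4 rose to 4.75 and 4.93 on day 4 and stayed more than 3 above day 0 to day 8, whereas Etv4 and Etv5 ended below 0 and Fos rose late.

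The phosphatase genes were called higher than on day 0 on every day from day 3 on. Dusp6 (ENSMUSG00000019960, mm10 chr10:99263231-99267488) was low on day 0, with 7.40, 4.63, 3.08 and 5.98 RPM. On day 4 it had 90.1, 198.6, 101.4 and 183.8 RPM, and on day 8 27.5, 87.5, 26.1 and 82.1 RPM. All libraries of days 4 and 8 lay above all of day 0, and the single cultures lay above the double cultures. The change from day 0 was 27.0-fold on day 4 (log2 4.75 ± 0.50 SE, adjusted p = 8.83e-09) and 9.51-fold on day 8 (log2 3.25 ± 0.50, adjusted p = 2.69e-06). Day 4 was the highest day in each of the 4 cultures. The mean of day 4 (143.5 ± 55.7 RPM, SD) stood above that of day 6 (103.6 ± 45.3) in 4 of 4 cultures although the ranges overlapped, and days 6 and 5 (102.7 ± 36.5) could not be ordered.

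Dusp4 (ENSMUSG00000031530, mm10 chr8:34807297-34819894) followed Dusp6 closely from a level near 0. It had 0, 1.85, 0 and 0 RPM on day 0, where the only reads were 4 in X14 single. On day 4 the values were 12.8, 45.9, 14.6 and 54.9 RPM, on day 5 35.1, 46.9, 35.0 and 47.3 RPM, and on day 8 9.35, 30.1, 10.4 and 20.2 RPM. The double cultures reached their highest value on day 5, as did X14 single, whereas X18 single was highest on day 4. Against day 0 the log2 change came to 4.93 ± 0.59 (day 4, adjusted p = 1.08e-07), 5.56 ± 0.59 (day 5, adjusted p = 7.06e-09) and 4.18 ± 0.59 (day 8, adjusted p = 6.40e-07). These estimates rest on 4 reads on day 0, and their size depends on the value the authors wrote for a gene without reads. The mean of day 5 (41.1 ± 6.96 RPM) and that of day 4 (32.1 ± 21.5) overlapped in range.

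Of the genes for upstream inhibitors, Spry4 (ENSMUSG00000024427) had a sharp peak. It had 0 reads in all 4 libraries of day 0, and on days 1 and 2 its means were 0.655 and 4.09 RPM, the first of them under the floor. On day 3 the values were 22.0, 68.8, 14.98 and 42.9 RPM and on day 4 37.6, 95.1, 24.2 and 83.0 RPM. Day 4 was the highest day in all 4 cultures. Against the floor of 3 reads per library Spry4 exceeded its day 0 level at least 17.7-fold on day 3 and at least 28.5-fold on day 4. Limma on the log2 values gave adjusted p = 1.32e-05 and 3.48e-07. One day later it had 0, 9.88, 9.99 and 15.98 RPM. On day 8 the values were 2.60, 12.6, 0.870 and 1.19 RPM. The X18 values were 1 read each, under the floors of these libraries (2.61 and 3.57 RPM). The mean of day 8 was at least 2.05-fold above day 0, and limma called the log2 change (adjusted p = 0.0433). This last call was lost without replicate 1 (adjusted p = 0.118), without replicate 2 (adjusted p = 0.322), without replicate 4 (adjusted p = 0.0575) and without the X14 libraries of day 0 (adjusted p = 0.227).

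Spry2 (ENSMUSG00000022114, mm10 chr14:105891949-105896819), the other Sprouty gene, was already abundant in 2i. It had 54.6, 28.7, 33.9 and 42.7 RPM on day 0, stood at 60.7, 99.95, 62.8 and 91.2 RPM on day 3, the highest day in all 4 cultures, and had 7.80, 37.0, 13.7 and 36.8 RPM on day 5. On day 8 it had 14.5, 52.5, 22.6 and 33.3 RPM, which overlapped day 0. No day passed the rule for Spry2, the nearest being day 3 (log2 0.98 ± 0.45, adjusted p = 0.139) and day 5 (log2 -0.99 ± 0.45, adjusted p = 0.0829). On day 4 the cultures parted, with 25.5 and 25.9 RPM in the double and 98.3 and 86.9 RPM in the single cultures.

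Spred1 (ENSMUSG00000027351, mm10 chr2:117121374-117182279) was called higher on every day from day 3 on. It had 35.6, 13.9, 12.3 and 17.9 RPM on day 0, 30.3, 82.8, 37.2 and 81.3 RPM on day 4, and 56.0, 124.7, 76.0 and 137.6 RPM on day 6, its highest day in all 4 cultures. On day 8 it had 42.1, 122.0, 33.9 and 64.2 RPM. Against day 0 the log2 change came to 1.53 ± 0.50 (day 4, adjusted p = 0.0221), 2.35 ± 0.50 (day 6, adjusted p = 0.000304) and 1.67 ± 0.50 (day 8, adjusted p = 0.00656). In X14 double the day 4 value was below that of day 0. The day 4 call was lost without replicate 2, 3 or 4 (adjusted p = 0.113, 0.0838 and 0.168) and the day 8 call without replicate 2 (adjusted p = 0.0686).

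The PEA3 group factors were higher than in 2i on day 4 and lower on day 8, and Etv4 was first called on day 3 and Etv5 on day 4. Etv4 (ENSMUSG00000017724, mm10 chr11:101769742-101785371) had 22.2, 12.04, 5.14 and 8.54 RPM on day 0 and 50.7, 74.0, 39.2 and 67.8 RPM on day 3. It had 37.6, 72.5, 35.5 and 67.8 RPM on day 4 and 3.12, 5.35, 0 and 5.95 RPM on day 8. All libraries of days 3 and 4 lay above all of day 0, whereas those of day 8 overlapped the lower libraries of day 0. Against day 0 the log2 change came to 2.43 ± 0.59 (day 3, adjusted p = 0.00592), 2.28 ± 0.59 (day 4, adjusted p = 0.00413), -1.62 ± 0.59 (day 7, adjusted p = 0.0236) and -1.81 ± 0.59 (day 8, adjusted p = 0.0119). The day 4 call was lost without replicate 4 (adjusted p = 0.0683) and that of day 8 without replicate 1 (adjusted p = 0.0869). Without the X14 libraries of day 0, neither the fall of day 7 (adjusted p = 0.264) nor that of day 8 (adjusted p = 0.176) was called.

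Etv5 (ENSMUSG00000013089, mm10 chr16:22381309-22439719) was the most abundant of the 9 genes in 2i. It had 271.1, 262.5, 112.0 and 149.4 RPM on day 0, 408.7, 355.2, 429.7 and 345.8 RPM on day 4, and 34.8, 105.4, 34.8 and 80.9 RPM on day 8. Every library of day 4 lay above and every library of day 8 below all of day 0. Etv5 was 2.06-fold higher on day 4 (log2 1.04 ± 0.30, adjusted p = 0.00924) and 3.28-fold lower on day 8 (log2 -1.71 ± 0.30, adjusted p = 1.84e-05). The day 4 call was lost without replicate 3 (adjusted p = 0.164) and without replicate 4 (adjusted p = 0.0652). Days 4 (384.8 ± 40.7 RPM) and 3 (359.1 ± 43.3) overlapped in range, with day 4 higher in 2 of 4 cultures.

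The immediate early genes had few reads for most of the course. Egr1 (ENSMUSG00000038418) had 1.85, 0, 0 and 6.83 RPM on day 0 and 0 reads in all 8 libraries of days 1 and 2. On day 4 it had 6.05, 21.4, 4.51 and 8.97 RPM, from 8 to 33 reads per library, and on day 8 4.67, 11.7, 2.61 and 5.95 RPM. Day 4 and day 8 overlapped day 0 through X18 single. Against day 0 the log2 change came to 2.52 ± 0.70 (day 4, adjusted p = 0.00743), 2.16 ± 0.70 (day 6, adjusted p = 0.0125) and 1.86 ± 0.70 (day 8, adjusted p = 0.0286). The day 4 call was lost without replicate 2 (adjusted p = 0.159) and without the X14 libraries of day 0 (adjusted p = 0.0886), and that of day 6 likewise without the latter (adjusted p = 0.157). The day 8 call was lost without replicates 1, 2 or 3 (adjusted p = 0.063, 0.346 and 0.0615) and without the X14 libraries of day 0 (adjusted p = 0.274).

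Fos (ENSMUSG00000021250, mm10 chr12:85473890-85477273) rose late, and was called higher on days 6, 7 and 8. It stayed between 0 and 4.996 RPM in every library up to day 5 and had 2.78, 0.926, 0 and 0.854 RPM on day 0. On day 7 it had 13.0, 7.96, 16.3 and 5.02 RPM and on day 8 34.8, 18.95, 39.2 and 10.7 RPM. Both days lay above day 0 in all libraries, and day 8 was the highest day in each of the 4 cultures. The fold change was 8.03 on day 7 (log2 3.01 ± 0.60, adjusted p = 0.000117) and 19.2 on day 8 (log2 4.26 ± 0.60, adjusted p = 5.57e-07). The labels say that cells were taken off the plate before RNA was harvested, and the study's methods that lysis buffer went onto the plate. On day 8 against day 0, 23.9% of all genes were called higher and 11.1% lower (median log2 0.23). Of 8 heat shock and dissociation response genes, 3 were called higher on day 8 than on day 0 and 0 lower (median log2 0.12). Gadd45b (log2 1.60 ± 0.37) was among the 3. The summed level of the 8 genes was 1186 to 1949 RPM on day 0 and 966.4 to 1458 RPM on day 8. Hsp90aa1 made up 1331 and 702 RPM of it in the mean. Against day 4, 15.7% of all genes were called higher on day 8 and 9.01% lower (median log2 0.1). Of the 8 genes 5 were called higher and 0 lower (median log2 1.67). The 5 were Gadd45b (log2 3.09 ± 0.37), Hspa1b (3.06 ± 0.67), Hspa1a (2.81 ± 0.59), Socs3 (1.78 ± 0.33) and Nfkbia (1.56 ± 0.43). The part of these genes in the rise of Fos was not tested.

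Compared per length, as RPKM (RPM divided by the exon length in kilobases), the order of the genes changed over the course. On day 0 Etv5 (48.5 ± 19.5 RPKM, SD, n = 4) stood above Spry2 (19.2 ± 5.43) and Spry2 above Etv4 (3.86 ± 2.38) with no overlap between libraries. Below them Spred1, Dusp6, Fos, Egr1, Dusp4 and Spry4 followed at 2.94 RPKM or less, each overlapping its neighbour. On day 4 Etv5 (93.8 ± 9.93) again stood alone, followed by Dusp6 (51.3 ± 19.9), Spry2 (28.4 ± 18.7), Etv4 (17.2 ± 6.28), Spry4 (13.1 ± 7.49), Dusp4 (11.7 ± 7.86) and Spred1 (8.53 ± 4.14). Neighbours from Dusp6 downwards overlapped, and Egr1 (2.28 ± 1.71) and Fos (0.656 ± 0.596) came last. On day 8 Dusp6 (9.34 to 31.3 RPKM, mean 19.95) came first, with Etv5 (15.6 ± 8.57), Spry2 (14.7 ± 7.87), Fos (11.01 ± 5.67), Spred1 (9.66 ± 5.86) and Dusp4 (6.40 ± 3.55) overlapping in a row. A gap separated Dusp4 from Egr1 (1.39 ± 0.865), Etv4 (1.16 ± 0.868) and Spry4 (0.942 ± 1.22).

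Several genes dipped together on day 5 and again after day 6. These steps were counted within cultures after the values had been seen, as genes that moved one way in 4 of 4 cultures. From day 2 to day 3, Dusp6, Spry2, Spry4, Spred1, Etv4 and Fos were higher in all 4 cultures (9.5% of all genes). From day 3 to day 4, Dusp6, Dusp4, Spry4 and Egr1 were higher in all 4 cultures, as were 19.2% of the 14612 genes tested. Over that step Spry2 was lower in all 4 (16.9% of all genes). From day 4 to day 5, Dusp6, Spry2, Spry4, Etv4, Etv5 and Egr1 were lower in all 4 cultures, as were 21.6% of all genes. Among them Spry4 went, in the mean, from 59.98 ± 34.4 to 8.96 ± 6.62 RPM. From day 5 to day 6, Spry2, Spry4, Spred1, Etv5, Egr1 and Fos were higher in all 4 cultures (24.1% of all genes), and Spry4 came back to 27.1 ± 18.03 RPM. Dusp4 was lower in all 4 over that step (12.2% of all genes). From day 6 to day 7, Dusp6, Spry2, Spry4, Spred1, Etv4, Etv5 and Egr1 were lower in all 4 cultures (14.8% of all genes). Fos was higher in all 4 over that step (16.2% of all genes). Scaling to the 75th percentile took Spry2 from the fall to day 7, and quantile normalization took Spry4 from the rise to day 6. Both otherwise left as named the genes of the rises to days 4 and 6 and of the falls to days 5 and 7. The rise to day 3 and the genes that went the other way were not recounted under these scalings. Day 5 holds the shallowest library, X14 double with 612740 reads, and the deepest, X18 single with 2445826.

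Day 8 was set against day 4 to follow the genes after weaning, as a difference between the means of these days, with the variance estimated from all 36 libraries. No library of day 0 enters this difference. Leaving out the X14 libraries of day 0 could therefore change only the variance, and 5 members were called (25.3% of all genes). Fos was called higher and Dusp6, Spry4, Etv4 and Etv5 lower, which makes 5 of 9 where 24.7% of all genes were called. Fos was 16.5-fold higher (log2 4.05 ± 0.60, adjusted p = 2.76e-06), over the same days as the 5 heat shock and dissociation response genes named above. Etv4 was 17.1-fold lower (log2 -4.09 ± 0.59, adjusted p = 1.68e-06), Spry4 21.5-fold lower (log2 -4.42 ± 0.82, adjusted p = 7.88e-05) and Etv5 6.76-fold lower (log2 -2.76 ± 0.30, adjusted p = 8.84e-09). Dusp6 was 2.84-fold lower (log2 -1.50 ± 0.50, adjusted p = 0.0192), and its call was lost without replicate 3 (adjusted p = 0.0851). Dusp4 (log2 -0.75 ± 0.59), Spry2 (-0.82 ± 0.45), Egr1 (-0.66 ± 0.70) and Spred1 (0.14 ± 0.50) did not pass. Markers of other cell types moved with the same days. All 6 trophoblast and epithelial markers had reads on day 8, when they summed to 2358 to 5112 RPM against 74.6 to 132.3 RPM on day 4. Krt18 alone had 1742 RPM on day 8, whereas Cdx2 had 7.48 and Elf5 1.06 RPM. The 6 mesoderm markers summed to 91.4 to 264.8 RPM on day 8 and 2.59 to 18.8 RPM on day 4, the 6 fibroblast markers to 65.3 to 108.4 and 12.9 to 33.2 RPM, and the 6 endoderm markers to 2.61 to 27.7 and 0 to 1.13 RPM, with Afp and Ttr at 0 reads on day 8. The 6 neural markers, of which Sox1 and Zic1 had 0 reads on day 8, summed to 57.1 to 90.4 RPM on day 8 and 57.4 to 122.9 RPM on day 4. The part of a changing mixture of cells in the differences of the 9 genes was not tested, and fewer cells of a type cannot be told apart from less RNA per cell in bulk samples.

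The cultures named double and single were compared within day and line over the 32 libraries of days 1 to 8. Of the 9 genes 6 passed the rule, all lower in double, where 4.54% of all genes were called (limma). These were Dusp6, Dusp4, Spry2, Spry4, Spred1 and Etv4. The median difference of the 9 genes was -1.07 on the log2 scale and that of all genes -0.04. Treating the 4 cultures as a random block also gave 6 calls (4.54% of all genes). Voom gave 6 as well (5.80%), with Egr1 and Fos in place of Spry2 and Etv4. There were 3 calls without replicate 1 (3.06% of all genes), 2 without replicate 2 (2.63%) and 3 with day 0 included (2.99%). Line X14 alone had 5 (3.87%) and line X18 alone 3 (2.79%). With 1 replicate left out, the label difference over days 1 to 8 rests on the pairs of the other line alone. The estimates without a replicate therefore repeat those of the single lines and are no separate check. Only the spread, and with it the counts, can differ. Markers of cell state moved with the label. Of the 8 ES cell markers 7 had a positive difference (median log2 0.52), 5 with an adjusted p under 0.05 and 1, Tbx3, called higher in double (log2 1.11 ± 0.28). Of the 6 primed state markers 5 had a negative difference (median -0.51), with 0 called by limma, 1 by voom, 3 at an unadjusted p under 0.05 and 2 at an adjusted p under 0.05, Dnmt3b (log2 -0.90 ± 0.12) and Pou3f1 (log2 -0.95 ± 0.18). Their part in the differences of the 9 genes was not tested. As only 2 cultures carry each label, differences between the labels cannot be told apart from differences between these cultures.

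Spry4 had the largest label difference of the 9 genes. In double it ranged from 0 to 37.6 RPM (median 3.55, n = 16) and in single from 0 to 95.1 RPM (median 12.5, n = 16), and it was lower in double in 15 of 16 pairs of line and day, with no read in either library of the last pair. The fitted difference was log2 -1.70 ± 0.28 (adjusted p = 5.40e-05), not called without replicate 2 (log2 -1.33, adjusted p = 0.0654). Dusp6 ranged from 2.11 to 101.4 RPM in double (median 33.5) and from 8.62 to 198.6 RPM in single (median 84.4). Its ranges overlapped over the days, but it was lower in double in 16 of 16 pairs (log2 -1.23 ± 0.12, adjusted p = 1.39e-08). Spry2 (log2 -1.05 ± 0.13, adjusted p = 7.21e-07) and Spred1 (log2 -1.15 ± 0.13, adjusted p = 1.20e-07) were also lower in all 16 pairs, as were 1.42% of all genes. Dusp4 was lower in 14 pairs and at 0 reads in both libraries of the other 2 (log2 -1.12 ± 0.20, adjusted p = 0.000163), and Etv4 was lower in 15 (log2 -1.07 ± 0.21, adjusted p = 0.000385). Without replicate 1 or 2, which leaves the pairs of X18, Dusp4 (log2 -0.91), Spry2 (log2 -0.83) and Spred1 (log2 -0.95) were under the required size. Without replicate 3 or 4, which leaves the pairs of X14, so was Etv4 (log2 -0.98).

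Egr1, Fos and Etv5 did not pass the rule between the labels. Egr1 was lower in double, at the limit of size (log2 -1.0 ± 0.26, adjusted p = 0.00595) and was called by voom (log2 -1.22, adjusted p = 0.00216). Fos was higher in double in 13 of 16 pairs and lower in 2 (log2 1.0 ± 0.24, adjusted p = 0.0032), again at the limit, and was called by voom (log2 1.02, adjusted p = 0.00253). Etv5 was lower in 10 and higher in 6 pairs (log2 -0.28 ± 0.13, adjusted p = 0.128). On day 0 the X18 pair had 7 of the 9 genes lower in double, whereas the X14 pair, which stood against its labels, had 7 higher in double and 1 lower.

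**Figure D3:**
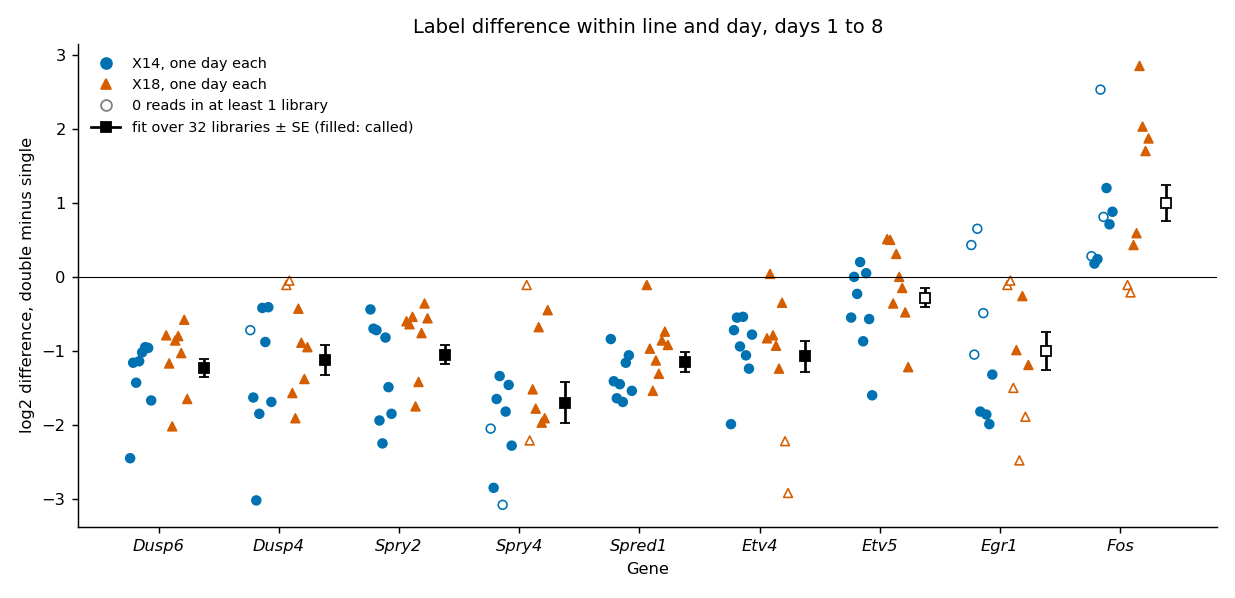
Log2 difference of double minus single (vertical axis) within each line and day for the 9 genes (horizontal axis), days 1 to 8. Blue circles are X14 and orange triangles X18, 1 point per day, open where at least 1 of the 2 libraries had 0 reads, and black squares are the fit over 32 libraries ± SE (filled where called). Points of Dusp6, Spry2 and Spred1 all lay below 0, and most of those of Fos above it.

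The label difference was then taken apart by period and by line. On days 1 to 4 there were 4 calls, Dusp6, Dusp4, Spry4 and Spred1, all lower in double (7.85% of all genes called), which became 2 without replicate 1 (5.02%) and 1 without replicate 2 (3.72%). On days 5 to 8 there were 7, Dusp6, Spry2, Spry4, Spred1, Etv4 and Egr1 lower and Fos higher (5.85% of all genes), which became 2, 3 and 4 without replicates 1, 2 and 3 (2.66, 2.72 and 4.26%). On those later days Fos differed by log2 1.5 ± 0.32 (adjusted p = 0.00155) and Egr1 by log2 -1.44 ± 0.36 (adjusted p = 0.00595). Between the periods the label difference itself changed in 0 of the 9 genes by limma and by voom, where limma called 4.07% and voom 4.43% of all genes. By limma 2 of the 9 had an unadjusted p under 0.05, as had 2735 of all 14612 genes. The 2 were Etv5 (log2 -0.65 ± 0.23, adjusted p = 0.103) and Fos (log2 1.01 ± 0.45, adjusted p = 0.214). Between the lines, X18 against X14, 0 of the 9 genes were called by limma or voom and 0 had an unadjusted p under 0.05. Of all genes, limma called 0.0137% and voom 0.0205%. The label difference was not found to depend on the line, with 0 genes called by limma and by voom, 0 of the 9 at an unadjusted p under 0.05, and 0.0% of all genes called (919 of 14612 at an unadjusted p under 0.05). The mean log2 difference of Dusp6 over 8 days was -1.35 in X14 and -1.11 in X18, that of Spry2 -1.28 and -0.83, and that of Spry4 -2.07 and -1.33.

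Of the regulators of the pathway listed apart from the 9 genes, 2 of 10 differed between the labels. Dusp9, an X-linked gene for a phosphatase of ERK, was higher in double in 16 of 16 pairs (log2 1.47 ± 0.12, adjusted p = 3.60e-10), with a median of 525.6 RPM in double and 137.1 RPM in single. Klhl13, an X-linked gene for an adaptor of a ubiquitin ligase, was higher in 16 of 16 pairs too (log2 1.91 ± 0.11, adjusted p = 1.37e-13), with medians of 946.3 and 212.6 RPM. The 10 genes are Nf1, Rasa1, Rasa2, Pebp1, Klhl13 and the phosphatase genes Dusp2, Dusp8, Dusp9, Dusp10 and Dusp16. Their median was 0.00, with 5 positive and 5 negative. X-linked over autosomal expression differed between the labels by 0.733 to 1.050 on days 1 to 5 and by 0.247 to 0.396 on days 7 and 8. The part of X-linked dose in the differences of the 9 genes was not tested.

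Other genes of the pathway were read from lists, whose counts stand against the shares of all genes given above. Of 18 ERK feedback and target genes outside the 9, 9 were higher and 1 lower on day 4 (median log2 0.95) and 9 higher and 1 lower on day 8 (median 1.94). On day 4 the higher ones included Myc (log2 4.89 ± 0.74), the anti-apoptotic gene Ier3 (3.69 ± 0.40), and the family members Spred3 (4.05 ± 0.70), Spry1 (2.16 ± 0.44) and Spred2 (1.02 ± 0.38), and the lower one was Dusp14 (-1.83 ± 0.28). Etv1, the PEA3 group factor outside the members, was higher on day 4 (3.04 ± 0.64) and at 0.76 ± 0.64 on day 8, not called. Between the labels 16 of the 18 had a negative difference (median -0.36), but only Ccnd1, which encodes cyclin D1, was called lower in double (-1.02 ± 0.14, adjusted p = 2.12e-06) and Lif was called higher (1.36 ± 0.26, adjusted p = 0.000268).

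Of 15 immediate early genes outside the members 12 passed the filter, and Egr2, Egr3 and Fosb did not. On day 4, 5 were higher (median log2 0.92), and on day 8, 8 were higher and 1 lower (median 2.31). Genes for other AP-1 subunits were among the higher ones on day 8, Fosl2 with log2 6.17 ± 0.41, Jun with 3.94 ± 0.38 and Junb with 3.69 ± 0.44. Ier2 was the lower one (-1.31 ± 0.27). Between the labels 0 of the 12 were called by limma and by voom (median 0.22), with 9 at an unadjusted p under 0.05 and 5 at an adjusted p under 0.05 but below the required size.

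Further up stand the kinases and adaptors of the cascade. Of these 20 genes 6 were higher and 1 lower on day 4 (median log2 0.71), and 6 higher and 0 lower on day 8 (median 0.69). Mapk3, which encodes ERK1, was higher on both days (2.04 ± 0.35 and 2.00 ± 0.35), as were Ptpn11 and Frs2, and the scaffold gene Ksr1 was lower on day 4 (-2.10 ± 0.59). Between the labels Ksr1 alone of the 20 was called (log2 1.0 ± 0.25, adjusted p = 0.00347), higher in double. Of 8 FGF ligand and receptor genes 4 were higher on day 4 (median 1.32), and 4 were higher and 1 lower on day 8 (median 1.16), with 0 called between the labels by limma, 1 by voom and 2 at an unadjusted p under 0.05. Fgf5 had no read on day 0 and was at least 25.2-fold higher on day 4, whereas Fgf4 had 246.5 ± 80.9 RPM on day 0 and was down to 9.79 ± 4.02 RPM by day 8 (log2 -4.67 ± 0.25). Of the 6 primed state markers 5 were higher on day 4 (median 5.87, or 4.97 with Fgf5 at its bound), among them Otx2 (8.25 ± 0.44), and of the 8 ES cell markers 6 were lower (median -3.57).

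**Figure D4:**
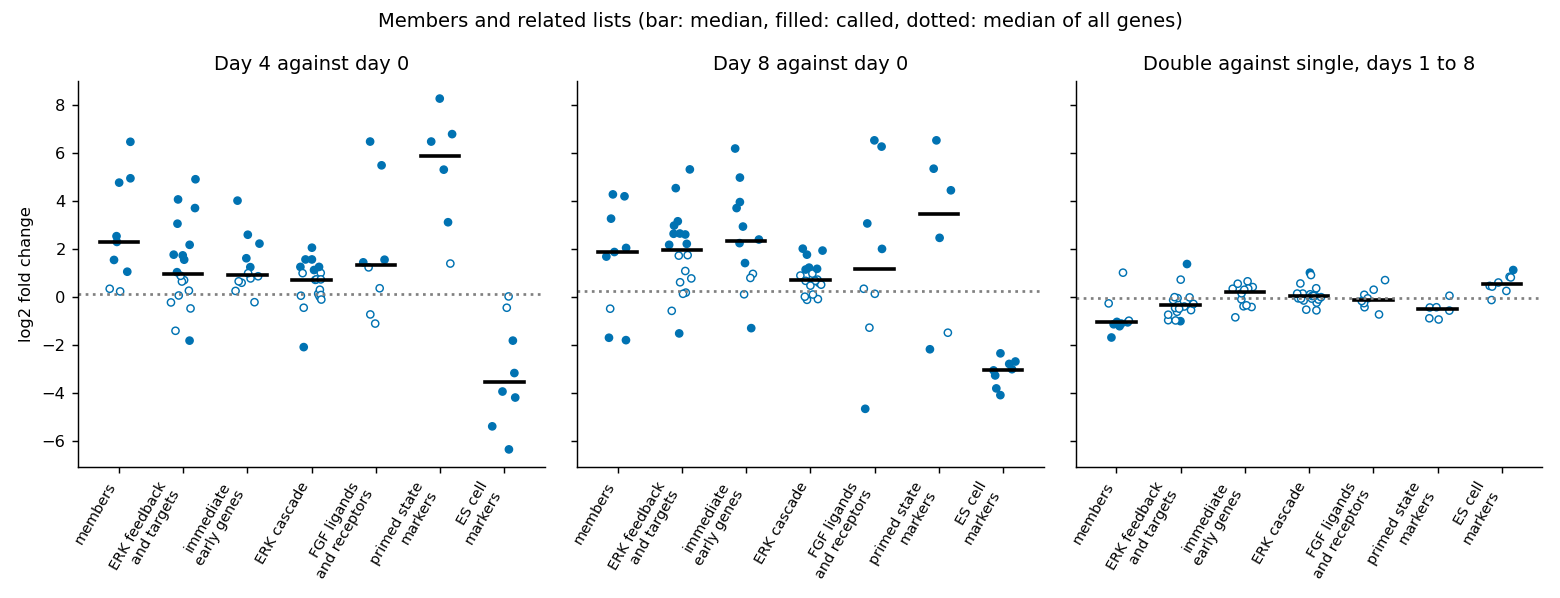
Log2 fold change (vertical axis) of each gene in the 9 members and in 6 related lists (horizontal axis), for day 4 against day 0, day 8 against day 0, and double against single on days 1 to 8. Each point is a gene (filled where called), bars are list medians and the dotted line is the median of all genes. Between the labels the median of the members lay at -1.07 and those of the other lists between -0.51 and 0.52.

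The genes with the most similar profile were found by Pearson's r of log2 values over the 36 libraries, which share cultures and days, among the 9403 genes whose mean was 10 RPM or more. Dusp6 was closest to Emb (r = 0.96), Fzd7 (0.95) and Igsf9 (0.95), and Dusp4 to Gja1, Sema6a and Dusp6 (each 0.95). Spry4 was closest to Dnmt3b (0.90), Slc7a7 (0.90) and Vrtn (0.89). Etv4 was closest to Dis3 (0.91), Lef1 (0.90) and Gart (0.90), and Etv5 to Hells (0.95), Ide (0.92) and Rrn3 (0.91). Spry2 was closest to Ctbp2 (0.89), Ccnd1 (0.86) and Zic2 (0.86), and Spred1 to Hook1 (0.91), Cdc14b (0.89) and Fam84b (0.89). Egr1 was closest to Fgf5 (0.81), Ogfr (0.75) and Parp9 (0.75), and Fos to Rbms2 (0.90), Nrk (0.87) and Mbnl3 (0.87). Among the members themselves the highest r were those of Dusp6 with Dusp4 (0.95), Etv4 with Etv5 (0.89) and Dusp6 with Spred1 (0.83), and the lowest were those of Fos with Etv4 and with Etv5 (-0.60 each). These values describe likeness over the course and carry no test.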

How the data were processed

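RNA of 36 libraries (9 days, 4 cultures) was sequenced as 75 bp single-end reads. Per the labels, bcl2fastq and TopHat2 2.0.12 were used with mm10; the annotation version and strand setting are not given in the sources used here. The authors deposited log2 values per gene, log2 RPKM by their scale, in which a gene without reads was written as 0.9 read. Undoing the log and length gave whole reads for 100% of values (tolerance 0.01 read), and from these RPM; exon lengths were scaled with GENCODE M21 (22710 genes matched, 52.3% with the same exon length), so RPKM levels are approximate. All 36 value columns were mapped to samples (0 unmapped). Depth was 612740 to 2445826 reads in genes (median 1297944).

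Genes with at least 1 RPM in at least 4 libraries (14612 of 25965) were tested on the deposited log2 values with limma 3.58.1 (R 4.3.3, moderated test with trend, two-sided, Benjamini-Hochberg). Days were compared in 1 fit of 36 libraries; labels and lines in fits of the 32 libraries of days 1 to 8 with day, line and label as terms. Called means an adjusted p under 0.05 and a log2 change of at least 1. The fit was tested on simulated data. Replicate numbers stand for the same line and label on each day, taken here as 1 culture. Deviations of same-numbered libraries correlated weakly over days 1 to 8 (median r 0.127 to 0.186), with the lowest r at -0.251. With day 0 the median r was -0.0476 and -0.0741 for the X14 cultures, against 0.136 and 0.210 for X18. Libraries of the same line and label can correlate without being 1 culture, so these values do not settle the pairing. Tables were handled with Python 3.11.15, numpy 2.4.6 and pandas 2.3.3. Alternatives were other filters, scalings, fits and sets of libraries, and voom on the recovered reads. Members and gene lists were chosen with earlier results of these data known; named genes are the members, called list genes, and the 3 genes most like each member.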

Additional observations from a re-analysis of the deposited data

Results flagged for a closer look

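A library stood apart from the other 3 of its day, by Dixon's criterion for groups of 4, in 7 of 81 groups of gene and day. The criterion flags about 1 in 20 groups of normally distributed values by chance. That rate does not hold for counts near 0, so the 7 are not set against it. All 7 were the X14 single library, in each case the highest value. Spry4 had 12.63 RPM (26 reads) in it on day 8, Spry2 61.88 RPM (70 reads) on day 7 and Etv4 52.08 RPM (67 reads) on day 2. The other 4 rest on few reads, namely Dusp4 with 1.852 RPM on day 0 (4 reads) and 1.048 RPM on day 1 (2 reads), Spry4 with 2.619 RPM on day 1 (5 reads) and Fos with 0.5238 RPM on day 1 (1 read). In these 4 groups the other 3 libraries had 0 reads, so that any read would have been flagged.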

How the results depend on the processing

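Single genes were followed under the alternatives for day 4 and day 8 against day 0, day 8 against day 4 and double against single on days 1 to 8. Of these 496 values 440 kept direction and side of the threshold, 47 lost their call, 5 gained one and 4 changed sign. Those 4 were near 0: Spry2 on day 4 without replicate 2 (-0.15), Fos on day 4 with quantile normalization (-0.05) and without replicate 3 (-0.00), and Spred1 on day 8 against day 4 with quantile normalization (-0.06). For the days, the replicate block and a term for the line cannot move the log2 change. Nor can leaving out day 0 libraries move that of day 8 against day 4. There only the spread can alter a call, so the 440 are not all separate checks. Leaving out 1 replicate gave 0 to 1 calls on day 2 (0.212 to 13.7% of all genes) and 1 to 8 on day 3 (3.02 to 20.2%). It gave 4 to 7 on day 4 (11.3 to 26.2%) and 5 to 7 on day 8 (26.2 to 36.6%). Between the labels it gave 2 to 5 (2.63 to 5.03%). By period these were 1 to 6 on days 1 to 4 (3.72 to 7.12%) and 2 to 5 on days 5 to 8 (2.66 to 4.26%). With only the 2 days compared there were 3 calls on day 3 (2.66% of all genes) and 5 on day 8 (28.2%). Between the labels there were 3 with day 0 included (2.99%) and 3 in line X18 alone (2.79%). Over days 1 to 8 leaving out 1 replicate likewise left the label pairs of 1 line. Without the X14 libraries of day 0, an alternative chosen after seeing the data, there were 2 calls on day 2 (23.2%) and 5 on day 8 (42.3%). The day 4 values of Spry2 and Fos ran from -0.15 to 0.80 and from -0.00 to 0.51 over the replicates left out. The replicate block gave 3 calls on day 2 and added Fos on day 3, and it changed no other call. The cause of these changes was not tested. The median of all genes shifted from day 0 to day 7 by 0.26, by 0.20 with 75th percentile scaling and by -0.06 with quantile normalization. Depth limits Egr1, Fos, Dusp4 and Spry4 most, which had 15, 7, 8 and 9 libraries with 0 reads.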
